A study of Homo sapiens with 12 samples.

Results

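The genes described here are the 10 that carry the G1 step of the cell cycle: the D-type cyclins CCND1, CCND2 and CCND3, the E-type cyclins CCNE1 and CCNE2, the kinases CDK4, CDK6 and CDK2, the phosphatase CDC25A and the pocket protein RB1. They were chosen by name and function, with no measured value in the rule, though earlier results of these data were known. All 10 were measured, by 28 probe sets, among 19775 genes tested. Expression was read on 12 Affymetrix Hgu133plus2 arrays of PC9 derivatives, PC9 (PC-9 in the labels) being an EGFR-mutant cell line of human lung adenocarcinoma. A GFP vector marked the control line, and pre-miR-371, the hairpin from which the miR-371 miRNAs are cut, was expressed in its counterpart. The methods describe lentiviral hairpin constructs with a scrambled hairpin in a copGFP plasmid as control, while the labels call the introduction of the constructs a transfection and name only the GFP vector. Cells of each line were given DMSO or 2 µM erlotinib, an inhibitor of the EGFR kinase, for 24 h, which gave 4 groups of 3 arrays.

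Cells leave G1 when D-type cyclins, which are made in response to growth factor signals, bind CDK4 or CDK6 and phosphorylate RB1. RB1 holds E2F transcription factors inactive, and its phosphorylation frees them to switch on the genes of S phase, among them the E-type cyclins. Cyclin E then activates CDK2, which phosphorylates RB1 further and starts DNA replication, and CDC25A takes inhibitory phosphates off CDK2. In EGFR-mutant cells the receptor feeds this circuit through the ERK pathway, with AP-1 factors and MYC as intermediates.

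The mature miRNAs of the hairpin are shown because the hairpin is what the labels name as the difference between the constructs. Their levels were not measured here. They are given 5′ to 3′ from RefSeq (GRCh38.p14), with the seed, bases 2 to 8, in capitals. The -3p miRNA lies at chr19:53787716-53787738 and the -5p miRNA at chr19:53787680-53787699, both on the plus strand in MIR371A.
hsa-miR-371a-3p: aAGUGCCGccaucuuuugagugu
hsa-miR-371a-5p: aCUCAAACugugggggcacu

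Promoters of 6 of the 10 genes were matched in the RefSeq table, with 9 start sites in all. They were searched on both strands for the E2F letters TTTCCCGC and TTTGGCGC, the E-box CACGTG that MYC and related factors bind, the AP-1 letters TGACTCA and the ETS letters CCGGAAG. The windows printed here hold the upstream E2F letters of CDC25A and the 2 E-boxes of CDK4 farthest from its start. CDC25A holds TTTGGCGC from 44 bases before its start, a motif found in 0.652% of 35116 promoters of the same length. CDK4 holds CACGTG at 3 places, from 216, 196 and 101 bases before its start, and 7.26% of promoters hold it at least once. Both genes lie on the minus strand, and each window is written along the gene with the motif in capitals (chr3:48188443-48188472 for CDC25A and chr12:57752499-57752528 for CDK4, GRCh38.p14).
CDC25A: ggtggattccgTTTGGCGCcaactaggaaa
CDK4: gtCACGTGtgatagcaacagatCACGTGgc
CDK6 holds CACGTG past 1 of its 2 starts, from base 31 of the transcript, and 1 of the 3 CCND3 starts has CCGGAAG from 166 bases upstream (10.3% of promoters). TTTCCCGC (1.63% of promoters) and TGACTCA (4.95%) were found in 0 of the 9 promoters. These matches describe letters and are not evidence of binding.

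With erlotinib, 8 of the 10 genes fell in each line. In GFP vector cells the falls ran from 1.42-fold for CDK6 to 6.08-fold for CCNE1, and in pre-miR-371 cells from 1.29-fold for CCNE2 to 4.69-fold for CCNE1. CCND2 and RB1 did not pass the test in either line. Genes were called at an adjusted p under 0.05 in a limma fit over all genes. Of all tested genes, 23.4% were called lower and 26.5% higher in the GFP vector line. The pre-miR-371 line had 22.2% lower and 24.8% higher. Of these 10 genes, 8 were lower and 0 higher in each, and at an unadjusted p under 0.05 in limma 1 was higher in GFP vector cells, CCND2, and 0 in pre-miR-371 cells. The 10 genes had a median log2 fold change of -1.05 with the GFP vector and -0.50 with pre-miR-371, against all-gene medians of 0.00 and -0.03. Both lines' responses are given side by side, each against its own DMSO arrays. RNA was taken from whole cultures, so fewer cells in a phase of the cycle and less RNA per cell cannot be told apart. The labels do not say whether the 3 arrays of a group came from separate cultures, and the p-values measure only the spread between these arrays. There was 1 line of each kind, so an effect of the hairpin and a difference between these particular lines cannot be told apart either.

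**Figure D1:**
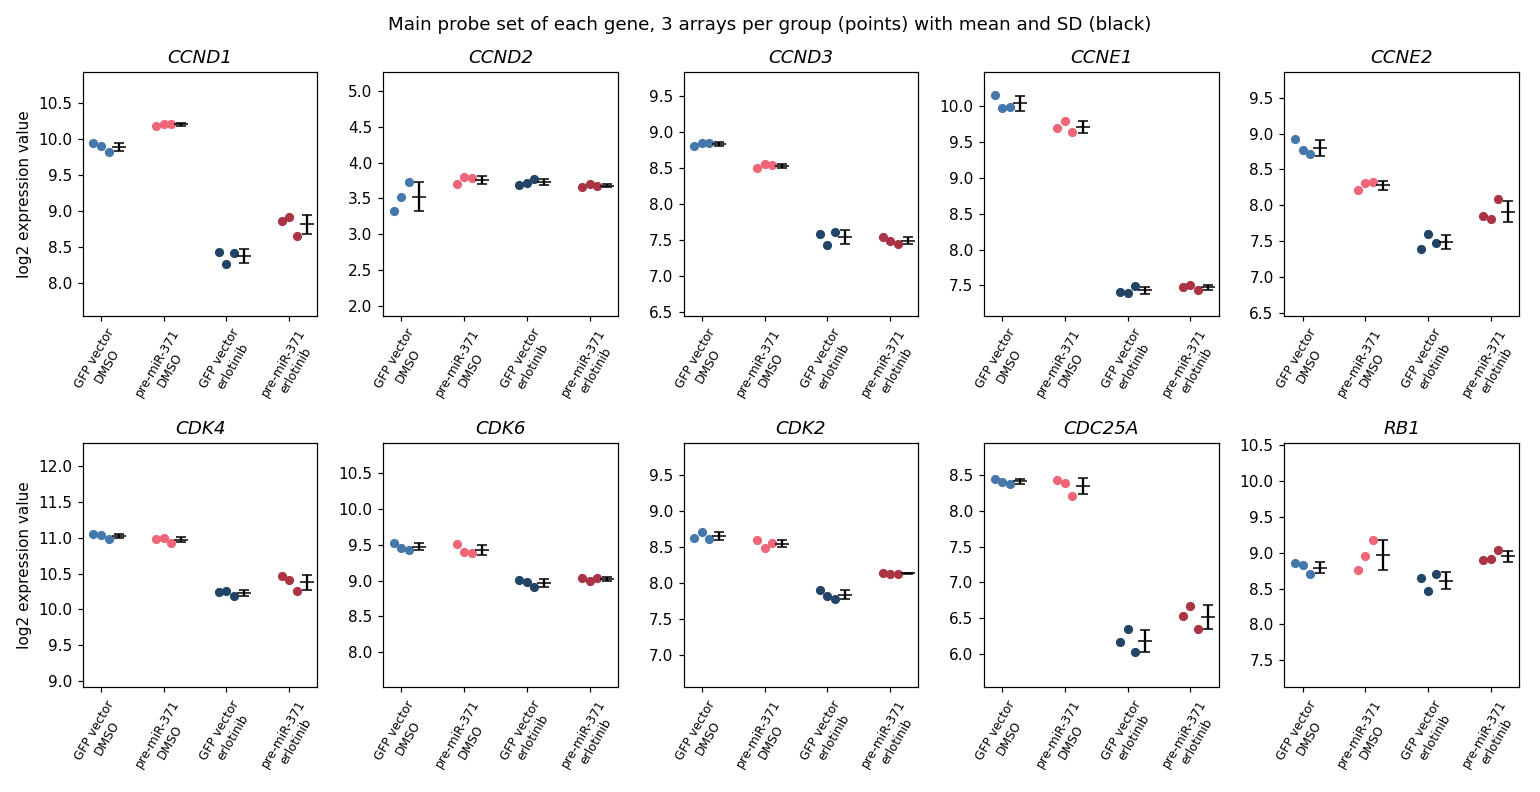
Log2 expression value of the main probe set of each gene on every array (points), by group, with the group mean and SD (n = 3) in black; every panel spans the same number of log2 units around its own centre. Erlotinib arrays lie below the DMSO arrays for the 8 genes called lower, a separation that was not counted over all genes. CCND2 stays below 4 on every array, and RB1 overlaps between the treatments of each line.

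Among the D-type cyclins, CCND1, the main cyclin D of many carcinomas, read 9.94, 9.91 and 9.82 log2 units in GFP vector cells with DMSO and 8.43, 8.26 and 8.42 with erlotinib. In pre-miR-371 cells it read 10.19, 10.21 and 10.21 with DMSO and 8.86, 8.92 and 8.66 with erlotinib. All 4 groups stood apart from each other, in the order pre-miR-371 DMSO, GFP vector DMSO, pre-miR-371 erlotinib and GFP vector erlotinib. The fall with erlotinib was 2.87-fold in GFP vector cells (log2 -1.52 ± 0.08 SE, adjusted p = 5.17e-09) and 2.62-fold in pre-miR-371 cells (log2 -1.39 ± 0.08, adjusted p = 1.55e-08). CCND1 was higher in pre-miR-371 cells in DMSO by 0.31 log2 units (adjusted p = 0.0375) and in erlotinib by 0.44 (adjusted p = 0.00296). The DMSO call of CCND1 was lost without any 1 of the 6 DMSO arrays (adjusted p 0.0708 to 0.117) and without GFP vector erlotinib replicate 3 (0.0515). The second CCND1 probe set gave falls of similar size (log2 -1.58 and -1.49). Its differences between the lines were 0.16 in DMSO (adjusted p = 0.278) and 0.25 in erlotinib (adjusted p = 0.0639) and did not pass. These adjusted p-values of the second probe set come from a limma fit over all single-symbol probe sets. In that fit the brighter probe set gave 0.0542 in DMSO and 0.00524 in erlotinib. Both probe sets read higher in pre-miR-371 cells, and in erlotinib only the brighter one passed.

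CCND3, the D-type cyclin prominent in lymphoid cells and also made in epithelium, read 8.81, 8.85 and 8.85 in GFP vector cells with DMSO and 8.50, 8.55 and 8.55 in pre-miR-371 cells. With erlotinib it read 7.59, 7.43 and 7.61 in GFP vector cells and 7.54, 7.49 and 7.44 in pre-miR-371 cells. The lines stood apart in DMSO and overlapped in erlotinib. CCND3 fell 2.45-fold in GFP vector cells (log2 -1.29 ± 0.06, adjusted p = 2.83e-09) and 2.06-fold in pre-miR-371 cells (log2 -1.04 ± 0.06, adjusted p = 2.48e-08). In DMSO it was lower in pre-miR-371 cells by a log2 difference of -0.30 (adjusted p = 0.0168), opposite in sign to CCND1, while in erlotinib the difference was -0.05 (95% interval -0.18 to 0.08). The DMSO call of CCND3 was lost without GFP vector DMSO replicate 2 or any of the pre-miR-371 DMSO arrays (adjusted p 0.0523 to 0.0606).

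CCND2 lay between 3.33 and 3.80 on all 12 arrays, below the array medians of 4.31 to 4.41. Its other 3 probe sets were dimmer still, with means of 2.58 to 3.18, so none of the 4 gave a level clearly above background. On the main probe set its log2 differences of 0.20 with erlotinib in GFP vector cells (adjusted p = 0.0711) and -0.08 in pre-miR-371 cells (adjusted p = 0.467) did not pass. The groups overlapped throughout. The probe set with a mean of 2.67 was called lower with erlotinib in pre-miR-371 cells (-0.40, adjusted p = 0.0250), at a level too dim to read.

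CDK4, the catalytic partner of the D-type cyclins, read 11.04, 11.03 and 10.99 in GFP vector cells with DMSO and 10.25, 10.26 and 10.19 with erlotinib. In pre-miR-371 cells it read 10.99, 10.99 and 10.93, and 10.47, 10.41 and 10.26. Treated and untreated arrays stood apart in both lines. The falls were 1.73-fold (log2 -0.79 ± 0.06, adjusted p = 2.57e-07) and 1.51-fold (log2 -0.59 ± 0.06, adjusted p = 4.35e-06). Between the lines CDK4 differed by -0.05 in DMSO (adjusted p = 0.653) and 0.15 in erlotinib (adjusted p = 0.129), which did not pass although the 2 sets of erlotinib arrays did not overlap.

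CDK6, the other cyclin D kinase, showed the smallest fall of the 8 called genes in GFP vector cells. Its arrays lay between 9.38 and 9.52 in DMSO and between 8.90 and 9.04 in erlotinib, the lines overlapping within each treatment. It fell 1.42-fold in GFP vector cells (log2 -0.50 ± 0.06, adjusted p = 7.94e-06) and 1.33-fold in pre-miR-371 cells (log2 -0.41 ± 0.06, adjusted p = 5.82e-05). The line differences of -0.04 in DMSO (95% interval -0.17 to 0.08) and 0.05 in erlotinib (95% interval -0.07 to 0.18) did not pass. The next brightest 2 of its 7 probe sets were also called lower in both lines.

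CCNE1, the cyclin E whose level peaks as cells enter S phase, had the largest fold change of the 10 genes in each line. It read 10.15, 9.97 and 9.98 in GFP vector cells with DMSO and 7.41, 7.39 and 7.49 with erlotinib. In pre-miR-371 cells it read 9.69, 9.79 and 9.63, and 7.47, 7.51 and 7.44. The lines were apart in DMSO and came to overlapping levels in erlotinib. The falls were log2 -2.60 ± 0.07 (adjusted p = 2.32e-11) and -2.23 ± 0.07 (adjusted p = 1.17e-10). In DMSO CCNE1 was lower in pre-miR-371 cells by a log2 difference of -0.33 (adjusted p = 0.0183), and in erlotinib the difference was 0.04 (95% interval -0.10 to 0.19). The DMSO call of CCNE1 was lost without GFP vector DMSO replicate 1 or pre-miR-371 DMSO replicates 1 or 3 (adjusted p 0.0557 to 0.0812).

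CCNE2, the second cyclin E and a gene that E2F factors switch on, was the member whose response differed most between the lines. It read 8.92, 8.77 and 8.71 in GFP vector cells with DMSO and 7.40, 7.60 and 7.48 with erlotinib. In pre-miR-371 cells it read 8.21, 8.31 and 8.33 with DMSO and 7.86, 7.81 and 8.08 with erlotinib. All 4 groups were apart, with GFP vector cells at both ends of the order and pre-miR-371 cells between them. CCNE2 fell 2.48-fold in GFP vector cells (log2 -1.31 ± 0.09, adjusted p = 5.76e-08) and 1.29-fold in pre-miR-371 cells (log2 -0.37 ± 0.09, adjusted p = 0.00334).

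The 2 responses of CCNE2 differed by 0.94 log2 units (SE 0.12, 95% interval 0.68 to 1.21, adjusted p = 0.00624), which ranked 18 by p among all genes. The gap came from both treatments, since CCNE2 was lower in pre-miR-371 cells in DMSO (log2 difference -0.52, adjusted p = 0.00812) and higher there in erlotinib (0.43, adjusted p = 0.00721). Of the 10 genes, CCNE2 was called in opposite directions in the 2 treatments. Its other, dimmer probe set gave a difference of responses of 1.14 (adjusted p = 0.00273), with -1.02 between the lines in DMSO (adjusted p = 0.000143). In erlotinib that probe set differed by 0.12 in the same direction as the main one (adjusted p = 0.406). The higher CCNE2 of treated pre-miR-371 cells was thus called on 1 of the 2 probe sets.

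CDK2, the kinase that the E-type cyclins activate, read 8.62, 8.72 and 8.62 in GFP vector cells with DMSO and 7.91, 7.82 and 7.78 with erlotinib. In pre-miR-371 cells it read 8.60, 8.50 and 8.56, and 8.15, 8.13 and 8.13. The groups were all apart, though GFP vector and pre-miR-371 DMSO arrays were separated by only a small gap. It fell 1.76-fold (log2 -0.82 ± 0.06, adjusted p = 8.29e-08) and 1.33-fold (log2 -0.41 ± 0.06, adjusted p = 4.65e-05). The responses differed by 0.40 (SE 0.08, 95% interval 0.23 to 0.58, adjusted p = 0.0246). In erlotinib CDK2 was higher in pre-miR-371 cells by 0.30 (adjusted p = 0.00471), and in DMSO the difference of -0.10 did not pass (adjusted p = 0.299). Its second probe set gave a difference of responses of 0.51 that did not pass (adjusted p = 0.103). Between the lines that probe set gave 0.13 in erlotinib, which did not pass (adjusted p = 0.431). In DMSO it was called lower in pre-miR-371 cells (-0.38, adjusted p = 0.0445). These adjusted p-values of the second probe set come from the limma fit over all single-symbol probe sets. In that fit the brighter probe set gave 0.0600 for the difference of responses and 0.0112 in erlotinib. Both probe sets had the same sign in each, and in erlotinib only the brighter one passed. The CDK2 call on the responses was also lost when any of several single arrays was left out: the adjusted p was 0.0701 without GFP vector DMSO replicate 2, 0.0727 and 0.0585 without pre-miR-371 DMSO replicates 2 and 3, 0.0623 and 0.0688 without GFP vector erlotinib replicates 2 and 3, and 0.0607 and 0.0646 without pre-miR-371 erlotinib replicates 1 and 2.

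CDC25A, whose promoter holds the E2F letters shown above, read 8.44, 8.40 and 8.37 in GFP vector cells with DMSO and 6.17, 6.35 and 6.03 with erlotinib. In pre-miR-371 cells it read 8.43, 8.39 and 8.21, and 6.54, 6.68 and 6.35. The lines overlapped in DMSO, and in erlotinib the lowest pre-miR-371 array lay just above the highest GFP vector array. The falls were 4.67-fold (log2 -2.22 ± 0.10, adjusted p = 1.88e-09) and 3.53-fold (log2 -1.82 ± 0.10, adjusted p = 1.40e-08), second in size to CCNE1 in each line. In erlotinib CDC25A was higher in pre-miR-371 cells by 0.34 (adjusted p = 0.0374). This last call did not survive the omission of single arrays, with an adjusted p of 0.129 when pre-miR-371 erlotinib replicate 2 was left out.

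RB1, the substrate of these kinases, did not pass with erlotinib in either line. It read 8.85, 8.82 and 8.70 in GFP vector cells with DMSO and 8.65, 8.47 and 8.71 with erlotinib, and 8.76, 8.96 and 9.18 and then 8.90, 8.91 and 9.03 in pre-miR-371 cells. The treatments overlapped in both lines. The log2 fold changes were -0.18 (95% interval -0.40 to 0.04) and -0.01 (95% interval -0.23 to 0.20). In erlotinib RB1 was higher in pre-miR-371 cells by 0.34 (adjusted p = 0.0404), a call lost without GFP vector erlotinib replicate 2 (0.27, adjusted p = 0.137). That call was also lost without any of several other single arrays and with the methods' t-test (adjusted p = 0.0999). These arrays read RB1 mRNA and not the phosphorylated protein on which the G1 circuit acts.

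**Figure D2:**
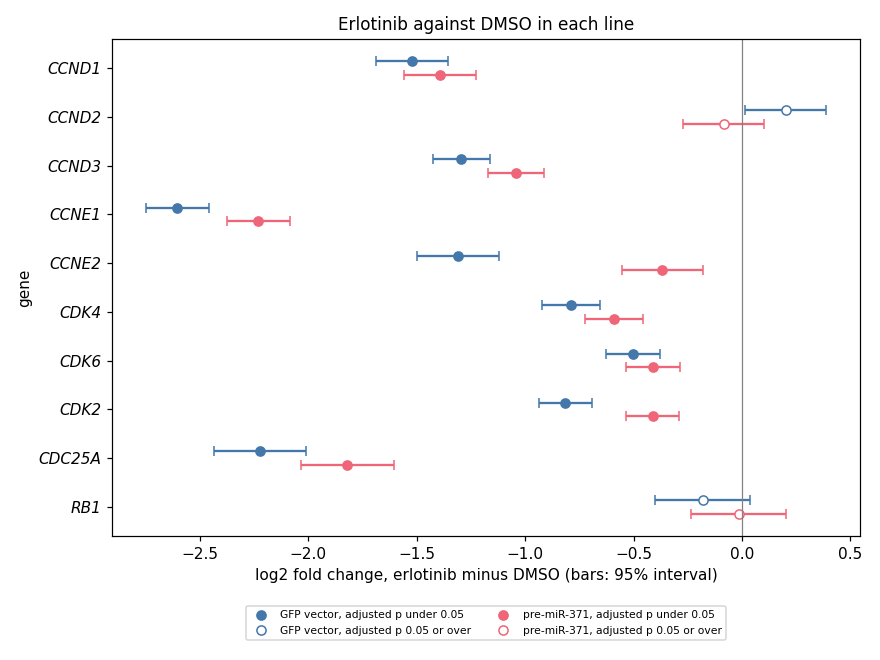
Log2 fold change with erlotinib for each gene in GFP vector cells (blue) and pre-miR-371 cells (red), n = 3 arrays per group; bars are 95% intervals and filled points passed at an adjusted p under 0.05. CCNE1 fell most in each line (-2.60 and -2.23), and CCNE2 shows the widest gap between the lines (-1.31 and -0.37).

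The lines were then set against each other within each treatment. In DMSO, CCND1 was higher and CCND3, CCNE1 and CCNE2 were lower in pre-miR-371 cells, and the other 6 genes did not pass. These 4 calls became 1 or 2 when single DMSO arrays other than GFP vector replicate 3 were left out. Without that replicate CCND1 was lost (adjusted p = 0.0715), while CCND2, near background, was called higher (adjusted p = 0.0231). Over all genes 1.62% were called higher and 3.64% lower in this comparison. In erlotinib, CCND1, CCNE2, CDK2, CDC25A and RB1 were higher in pre-miR-371 cells, 0 of the 10 genes were lower and 5 did not pass, where 6.5% of all genes were called higher and 9.46% lower. On the main probe sets all of these differences were under 1.5-fold, the limit that the methods set for array genes beside the adjusted p. There 0 of the 10 genes met both limits in either treatment (4 and 5 at the adjusted p alone). The dimmer CCNE2 probe set met both in DMSO (-1.02, adjusted p = 0.000143 in limma over all single-symbol probe sets). Over the 10 genes the median difference came to -0.06 for DMSO arrays and 0.22 for erlotinib arrays, beside -0.00 and -0.01 over all genes. The upper quartile of the arrays also differed between the lines, at 6.77 to 6.92 in GFP vector and 6.72 to 6.74 in pre-miR-371 arrays with DMSO. With quantile normalization repeated, which makes the quartiles equal, 3 of the 4 DMSO calls remained and that of CCND3 was lost (-0.23, adjusted p = 0.0571). With arrays centred on their medians, the DMSO call of CCND1 was lost (0.28, adjusted p = 0.0815), as was the erlotinib call of RB1 (0.34, adjusted p = 0.0536).

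**Figure D3:**
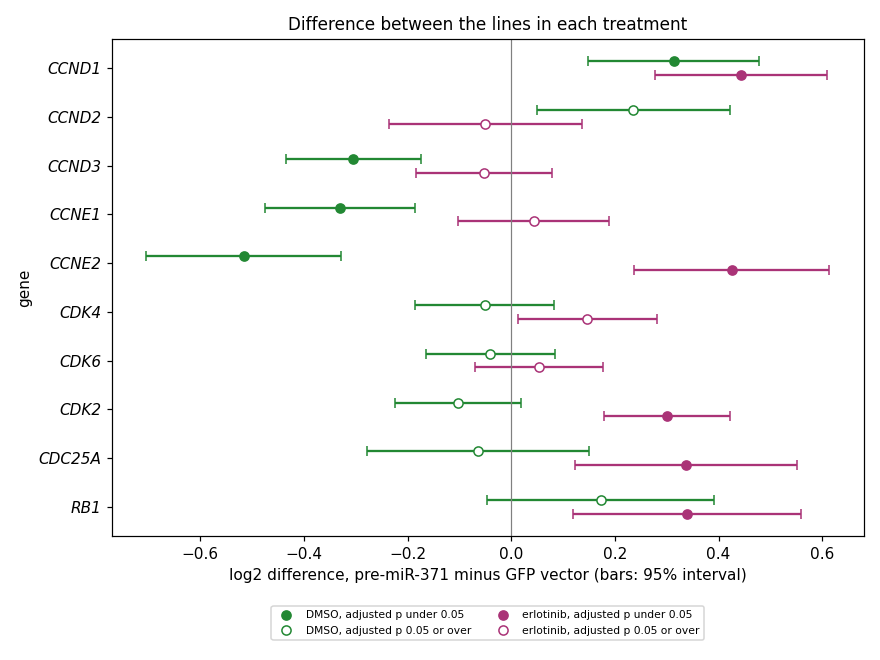
Log2 difference between the lines (pre-miR-371 minus GFP vector) for each gene in DMSO (green) and in erlotinib (purple), n = 3 arrays per group; bars are 95% intervals and filled points passed at an adjusted p under 0.05. CCNE2 lies below 0 in DMSO (-0.52) and above 0 in erlotinib (0.43), while CCND1 lies above 0 in both (0.31 and 0.44).

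The difference of the responses, the log2 fold change with erlotinib in pre-miR-371 cells minus that in GFP vector cells, passed for CCNE2 and CDK2. Over all genes 1.44% were called higher and 0.561% lower in this test. The other 8 genes did not pass, although 4 of them were positive and 1 negative at an unadjusted p under 0.05. Their differences were 0.37 for CCNE1 (95% interval 0.17 to 0.58, adjusted p = 0.0716), 0.40 for CDC25A (0.10 to 0.71, adjusted p = 0.190), 0.25 for CCND3 (0.07 to 0.44, adjusted p = 0.178) and 0.20 for CDK4 (0.01 to 0.39, adjusted p = 0.307). RB1 gave 0.17, CCND1 0.13, CDK6 0.09 and CCND2 -0.29, with adjusted p from 0.290 to 0.645. On the main probe sets the cyclin E and CDK2 pair and CDC25A thus had larger estimates than CDK4, CDK6 and CCND1. The next brightest 2 CDK6 probe sets gave 0.25 and 0.37 (adjusted p = 0.288 and 0.259 in limma). For CDK6 the contrast thus depended on the probe set, and differences between members were not tested.

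Not all probe sets of a gene read alike. Besides the main probe sets there were 18, of which 5 had a mean of at least 6 log2 units and 13 were dimmer. The 5 brighter ones belong to CCND1, CCNE2, CDK2 and CDK6 and fell in both lines. The 2 dim CDC25A probe sets gave -2.36 and -1.88, and -0.61 and -0.69, all called lower. Both lay below the array medians in erlotinib, at means of 2.84 and 3.37 and of 4.18 and 4.16, so the size of their falls cannot be read. Of the dim CDK6 probe sets, that with a mean of 4.01 was called lower in both lines (-0.79 and -0.49). Those with means of 4.61 and 2.80 were called lower in pre-miR-371 cells only, and that with a mean of 4.16 in neither line. The dim probe sets of CCND3, CCNE1, CDK2 and RB1, with means of 3.53 to 3.99, add nothing that can be read as a level.

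**Figure D4:**
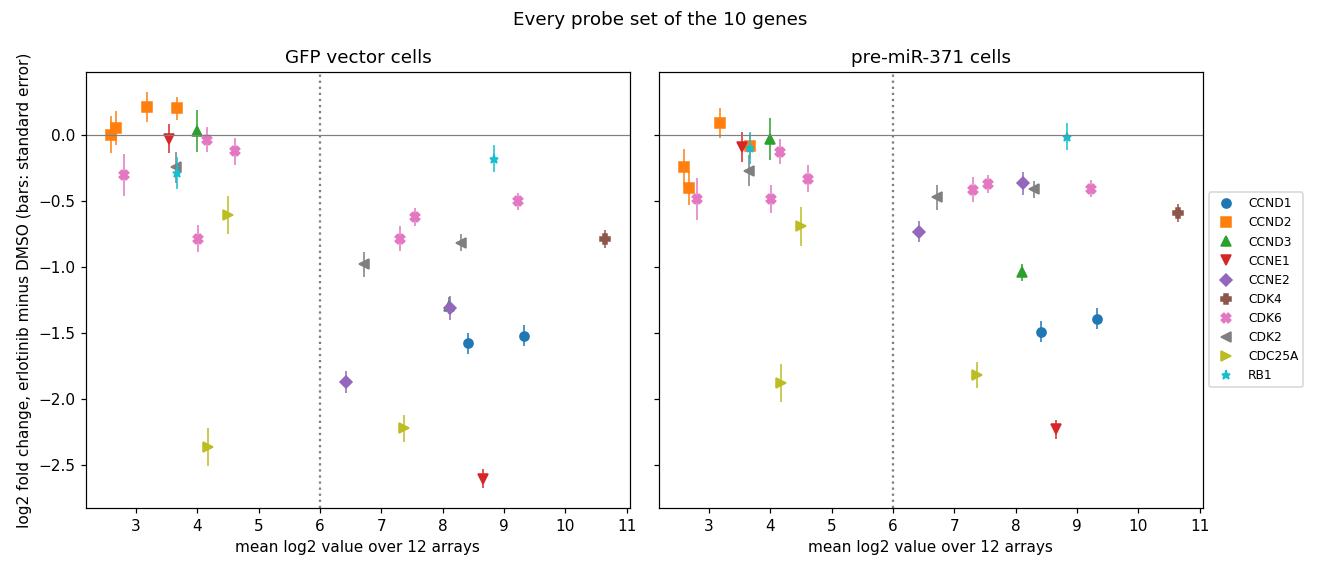
Log2 fold change with erlotinib (bars: standard error) of all 28 probe sets of the 10 genes against their mean log2 value over 12 arrays, in GFP vector cells (left) and pre-miR-371 cells (right); the dotted line marks a mean of 6. The bright probe sets of CCND1, CCNE2, CDK2 and CDK6 fall below 0 together, and the 4 CCND2 probe sets sit at means below 4.

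The inhibitors of these kinases moved in mixed directions. Of 7 listed, 6 were measured, and in each line 3 rose and 2 fell with erlotinib. CDKN1B, which encodes the CDK2 inhibitor p27, rose by 1.01 log2 units in GFP vector cells (adjusted p = 3.50e-07) and 1.03 in pre-miR-371 cells (adjusted p = 3.68e-07). CDKN2B, which encodes the CDK4 and CDK6 inhibitor p15, rose by 1.46 in each line. CDKN1A, which encodes p21, went the other way (-0.91 and -0.90). Between the lines CDKN1B was higher in pre-miR-371 cells by 0.36 in DMSO (adjusted p = 0.0278) and 0.39 in erlotinib (adjusted p = 0.00850), and CDKN1A was lower by -0.28 in each treatment (adjusted p = 0.0358 and 0.0172). The differences of responses of the 6 lay between -0.15 and 0.02, and 0 passed in limma, also at an unadjusted p under 0.05.

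Of the 12 pocket proteins, E2F and DP factors other than RB1, 1 rose and 10 fell in GFP vector cells, and 1 rose and 7 fell in pre-miR-371 cells. The riser was RBL2, the pocket protein p130 of resting cells (1.38 and 1.44). E2F5, a repressor E2F, gave -1.80 and -1.58, TFDP1, the DNA-binding partner of E2Fs, gave -1.01 and -0.85, and E2F3, an activator, gave -1.36 and -0.94. E2F7, an atypical repressor that E2F itself induces, had the largest difference of responses in this list (1.04, adjusted p = 0.00624), and E2F8 and E2F3 also passed (0.47 and 0.42). In erlotinib 5 of the 12 were higher in pre-miR-371 cells and 0 were lower, and in DMSO 0 were higher and 2 lower.

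The S phase genes that E2F controls fell without exception among those measured: 17 of 17 in each line, with medians of -1.21 and -0.84. CDC6, which loads the replicative helicase, gave -2.45 and -1.66, and MYBL2, a cell cycle transcription factor, gave -1.74 and -1.19. In 13 of the 17 the difference of responses passed, all toward a smaller fall in pre-miR-371 cells, with 0.80 for CDC6 (adjusted p = 0.00415), 0.67 for the helicase subunit MCM6 and 0.55 for the polymerase clamp PCNA. In erlotinib 12 were higher and 0 lower in pre-miR-371 cells, whereas in DMSO 0 were higher and 2 lower, RRM2 (-0.39) and POLA1 (-0.34). CCNE2, CDK2 and E2F7 thus had the same sign of difference as most of this list.

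Among the cyclins and kinase of later phases, 4 of 6 fell in each line, and 0 rose. CCNA2, the cyclin A that takes over CDK2 in S phase, gave -1.32 and -0.85, with a difference of responses of 0.47 (adjusted p = 0.00811). CDK1, the mitotic kinase, gave -0.77 and -0.26, with a difference of 0.51 (adjusted p = 0.0105), and CCNF also passed (0.46). Between the lines 5 of the 6 were higher in pre-miR-371 cells in erlotinib and 0 of 6 were called in DMSO by limma (2 at an unadjusted p under 0.05, both higher).

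Of 18 genes that activate or turn over G1 cyclins and their kinases, 2 rose and 10 fell in each line. CKS2 and CKS1B, small proteins that bind the kinases, gave -1.09 and -0.75 in GFP vector cells and -0.68 and -0.41 in pre-miR-371 cells, and their responses differed by 0.41 (adjusted p = 0.0140) and 0.35 (adjusted p = 0.0356). CUL1, the scaffold of the ligase that degrades cyclin E, gave -0.80 and -0.66. In DMSO 2 of the 18 were higher and 1 lower in pre-miR-371 cells, and in erlotinib 6 were higher and 2 lower. The kinase WEE1, which puts on the phosphates that CDC25A removes, was higher there by 0.53 (adjusted p = 0.00028).

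Upstream of the D-type cyclins, 7 of 10 transcription factors fell and 2 rose in each line. FOSL1, an AP-1 subunit, gave -4.65 and -4.68. EGR1, an immediate early factor, gave -4.34 and -3.20 down to levels of 3.92 and 4.28 that lie below the array medians. MYC, a factor that binds E-boxes, gave -1.55 and -1.64, and its binding to any of these genes was not measured. The difference of responses passed for EGR1 (1.14, adjusted p = 0.00615) and for FOS (0.65, adjusted p = 0.00926), whose treated levels of 4.47 and 4.77 were also near the medians, so neither size can be relied on. That of MYC did not pass (-0.08, adjusted p = 0.687). MYC was lower in pre-miR-371 cells in DMSO (-0.26, adjusted p = 0.0235) and in erlotinib (-0.35, adjusted p = 0.00219). In all, 0 of the 10 factors were higher and 3 lower in DMSO, and 2 were higher and 1 lower in erlotinib. The ERK output list, genes induced by ERK signalling, fell in 9 of 9 in each line (medians -3.34 and -3.11), DUSP4, a phosphatase of ERK, by 3.13 and 3.11 on the log2 scale. Of these 9, 0 passed on the difference of responses in limma (4 at an unadjusted p under 0.05, 3 of them positive). In DMSO 0 were called between the lines (1 at an unadjusted p under 0.05), and in erlotinib 2 were higher and 1 lower in pre-miR-371 cells.

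For 3 of the genes, those with the closest profile over the 12 arrays were taken among 9649 other genes with a mean of at least 6, by Pearson's r, a description over arrays that share 4 groups. CCND1 was most like RRP15 (0.996), GTF3C6 (0.995), COA6 (0.995), LPCAT1 (0.993) and RBM12 (0.993). CCNE2 was most like DMXL2 (0.972), LIPG (0.970), UNK (0.969), NEIL3 (0.966) and RMI1 (0.963). CDC25A was most like KLHL42 (0.999), HEATR1 (0.998), TLCD3A (0.997), DDX39A (0.997) and PARVB (0.997). The nearest profiles of CCNE2 were thus less close than those of the other 2 genes.

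The arrays read as an epithelial carcinoma line, with 8 of 11 epithelial markers at a mean of 6 or more (such as KRT18, 13.6, and EPCAM, 12.7), while the lung markers NKX2-1 (4.48), NAPSA (5.24) and SFTPB (5.72) were dim. The mean of 7 fibroblast markers was 4.27 to 4.48 over all arrays with 0 of 7 called with erlotinib in either line by limma, also at an unadjusted p under 0.05. The mean of 4 measured leukocyte markers was 3.45 to 3.75 with DMSO and 3.81 to 4.14 with erlotinib, with 1 of 4, LYZ, called higher in each line (1.37 and 1.26) and the defining marker PTPRC at 2.82. The mean of 3 endothelial markers was 5.76 to 5.93 with DMSO and 6.28 to 6.55 with erlotinib, mainly through PECAM1, while VWF and CDH5 stayed dim (4.75 and 5.17). The leukocyte and endothelial means were thus higher with erlotinib in both lines, where the G1 genes fell, and their part in those falls was not tested.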

How the data were processed

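The authors deposited a log2 value for every probe set on every array. Quantile normalization is stated in the methods, and RMA with affy in the submitters' processing notes (versions not given in the sources used here). These steps pull the arrays to a common distribution, so a shift shared by all genes would not be seen. The platform annotation gave a single symbol for 41097 of 54675 probe sets, several for 1801 and none for 11777, and only the first were used. A gene was read by its brightest probe set, by the mean of the 12 arrays.

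Group means were compared with limma 3.58.1 in R 4.3.3 (1 mean per group, all 12 arrays, eBayes), with Benjamini-Hochberg adjustment over 19775 genes and a call at an adjusted p under 0.05. Probe sets other than the main ones were tested in a separate limma fit over all single-symbol probe sets, with its own adjustment. The adjusted p-values of the 2 fits are therefore not directly comparable. The fit was tested on simulated data in which 200 of 19775 genes were changed in 1 group. It called 22% of the changes of 0.3 log2 units, 64% of those of 0.6 and 98% of those of 1, with 7 false calls. Small differences could thus be missed. Arrays of a group correlated at r of 0.9956 to 0.9975, and 0 pairs were identical; the number of arrays limits the precision. All 10 genes were named, up to 3 list members by p in a comparison, some further list and marker genes after their values were seen, and the 5 nearest profiles. The members and lists were chosen with earlier results of these data known. Alternatives changed the probe set rule, filter, normalization, variance model, array weights, samples, threshold and test. The methods name limma with a fold limit of 1.5 for the arrays, a limit run here as an alternative, and a t-test for other figures, called the methods' t-test here. List genes without a match are not analysed here. Plots used matplotlib 3.10.9 (Python 3.11.15).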

Additional observations from a re-analysis of the deposited data

Results flagged for a closer look

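The erlotinib response of CCNE2 differed between the lines by 0.94 log2 units (SE 0.12, adjusted p = 0.00624 in limma), with all 3 pre-miR-371 arrays below the GFP vector arrays in DMSO and all 3 above them in erlotinib. The response of CDK2 differed by 0.40 (SE 0.08, adjusted p = 0.0246), with the 3 pre-miR-371 arrays above the GFP vector arrays in erlotinib. Both were picked out because the test of the difference itself passed, and each was a smaller fall in pre-miR-371 cells.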

How the results depend on the processing

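Of the log2 fold changes of the 10 genes, 0 reversed in any comparison under any alternative. With erlotinib, 215 of 219 values in GFP vector cells and 219 of 219 in pre-miR-371 cells kept their side of the threshold, the 4 others being added calls, 1 of RB1 (mean of all probe sets, adjusted p = 0.0465) and 3 of CCND2. Small differences between the lines held less well: 27 of 219 values lost the call in DMSO, 22 of 219 in erlotinib and 9 of 199 for the difference of responses. These totals count all 10 genes, while only the 4, 5 and 2 genes called could lose a call. The shares among called genes were therefore larger. Every call lost on the difference of responses was that of CDK2. The count of called genes in DMSO went from 4 to 1 with the mean of all probe sets and with only the groups compared, to 0 with the methods' t-test and to 0 with a fold over 1.5 as well, and it was 1 to 4 with single arrays left out. In erlotinib it went from 5 to 3 with every probe set tested, to 1 with the methods' t-test and to 0 with the fold limit, and it was 3 to 5 with single arrays left out. For the difference of responses it went from 2 to 1 with the mean of all probe sets, with every probe set tested and with the fold limit, and it was 1 to 2 with single arrays left out. The CCNE2 difference of responses passed under all alternatives run, and that of CDK2 was lost with the mean of all probe sets (adjusted p = 0.0667) and every probe set tested (0.0600). That of CCNE1 passed with genes of a mean of at least 6 (0.0149), quantile normalization repeated (0.0346), trend and robust variance (0.00655) and array weights (0.0417). In pre-miR-371 cells, 5 of the 8 falls also passed the fold limit. In erlotinib, CDC25A was lost without replicates 2 of either DMSO group, GFP vector erlotinib replicates 1 or 3, or pre-miR-371 erlotinib replicates 1 or 2 (0.0503 to 0.129). RB1 was lost without replicates 2 of either DMSO group, GFP vector erlotinib replicates 1 or 2, or any pre-miR-371 erlotinib array (0.0542 to 0.138). The causes were not tested. Arrays of the same number did not deviate together in every pair of groups (r of -0.06 to 0.20). Between pre-miR-371 DMSO and pre-miR-371 erlotinib they did so weakly (0.14, 0.05 and 0.12). Whether the numbers pair the arrays is thus not settled. With the replicate block, 9, 8, 4, 5 and 2 genes were called in the 5 comparisons in the order given above, the added call being CCND2 in GFP vector cells (adjusted p = 0.0458). Differences near background, as for CCND2, could not be resolved.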
